A study of Mus musculus with 6 samples.

Results

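The vascular endothelial growth factor (VEGF) family was examined in mouse SC4 cells through 7 genes, 4 ligands (Vegfa, Vegfb, Vegfc and Pgf) and 3 receptors (Flt1, Flt4 and Kdr), chosen by symbol from the 23366 genes listed. All 7 were found, and all 7 passed the filter on low values (a mean of at least 10 normalized counts over the 6 libraries). SC4 is a single Schwann cell line from a mouse schwannoma, a tumour of the nerve sheath, and in both groups it is null for Nf2, which encodes the tumour suppressor merlin. The cells received a control siRNA (3 libraries) or the YAP Smartpool siRNA (3 libraries), which targets the transcriptional co-activator encoded by Yap1, and RNA was collected 48 hours later. Whether the 3 libraries of a group are separate cultures is not in the labels, and the p-values then rest on library-to-library spread that could be technical alone.

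VEGF ligands are secreted dimers that bind receptor tyrosine kinases, best known on blood and lymphatic endothelium. VEGF-A binds VEGFR1 (encoded by Flt1) and VEGFR2 (Kdr), the main signalling receptor of blood vessels; VEGF-B and placental growth factor (Pgf) bind VEGFR1; VEGF-C, once processed, binds VEGFR3 (Flt4), the receptor of lymphatic vessels, and VEGFR2. Schwannomas are vascular tumours, and antibody to VEGF-A is used against vestibular schwannoma in people with NF2 mutations.

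The upstream sequence of Vegfa and Vegfc is shown because these were the family members that fell after YAP siRNA in the test described next, and that of Vegfb because its values lay on the other side. Each run is the 250 bases before the RefSeq start (build GRCm38.p6, 5′ to 3′ on the gene's strand). Capitals mark GGGCGG, the GC box bound by SP1, or GCGTG, 1 of 2 hypoxia response cores searched, on either strand.
Vegfa, chr17:46032378-46032627, minus strand: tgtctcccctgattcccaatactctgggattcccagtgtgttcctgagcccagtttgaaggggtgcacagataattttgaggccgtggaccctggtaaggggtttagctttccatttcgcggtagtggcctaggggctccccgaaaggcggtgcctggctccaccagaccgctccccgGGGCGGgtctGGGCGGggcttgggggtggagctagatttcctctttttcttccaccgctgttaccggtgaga
Vegfc, chr8:54077282-54077531, plus strand: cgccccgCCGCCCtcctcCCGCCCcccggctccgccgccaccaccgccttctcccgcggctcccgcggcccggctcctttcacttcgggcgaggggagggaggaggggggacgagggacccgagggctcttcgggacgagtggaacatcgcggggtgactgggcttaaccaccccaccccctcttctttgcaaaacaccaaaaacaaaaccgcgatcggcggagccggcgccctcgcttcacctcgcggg
Vegfb, chr19:6987652-6987901, minus strand: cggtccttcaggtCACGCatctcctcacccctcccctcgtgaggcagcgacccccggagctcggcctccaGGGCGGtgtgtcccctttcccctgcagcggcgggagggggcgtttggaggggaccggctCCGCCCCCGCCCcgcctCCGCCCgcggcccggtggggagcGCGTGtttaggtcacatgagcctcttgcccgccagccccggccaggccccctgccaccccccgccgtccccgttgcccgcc

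All 7 genes matched the RefSeq promoter table, Vegfa and Pgf with a second start each. The 3 windows above held 2, 2 and 4 GC boxes, and at least 1 GC box lay in 32.7% of all 32851 windows of this length. GC content was 59.2% for Vegfa, 71.6% for Vegfc and 76.4% for Vegfb, against a median of 52.4% over all windows. The core of the site bound by TEAD factors, the DNA-binding partners of YAP (GGAATG, either strand), was found in 0 of the 9 windows of the 7 genes and in 12.6% of all windows. The AP-1 site TGANTCA was likewise in 0 of the 9 and in 6.75% of all windows. The hypoxia response core ACGTG (in 16.6% of all windows) occurred only in the second Vegfa window. GCGTG (in 28.2%) occurred in those of Kdr, Flt1, the first of Pgf, Vegfb and the second of Vegfa. That second Vegfa window (chr17:46025164-46025413) lies downstream of the first start, inside the gene, and the first Vegfa window held neither core. These are matches of letters, and they say nothing of sites outside the windows.

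Yap1, the targeted gene, had 4749.6, 5732 and 4751 normalized counts in the controls and 936, 571 and 475 after YAP siRNA, a mean of 13.0% of the control level. The 6 libraries held between 18025132 and 60078880 recovered reads. Over the 12820 genes tested, 63.5% of the variance lay on a first principal component that divided both libraries numbered 1 from the other 4, and 23.1% on a second that divided the siRNAs. Libraries with the same number shifted from their group means in the same direction, so a blocked fit, with a term for the number, is given beside the unblocked one. Replicates 2 and 3 of unlike number did so too (r = 0.552 and 0.516), so which of these belong together is not settled. At an adjusted p under 0.05, limma called 0 genes without the block (1558 at an unadjusted p under 0.05; edgeR 0, DESeq2 722, or 5.63%) and 1067 higher and 1149 lower with it. Below, "rose" and "fell" refer to genes that passed in the blocked fit; with no mean-variance trend that fit called 30 genes in all (0.234%), and 0 of the 7 VEGF genes. Of markers of the labelled cell type, Sox10 was near 0 (at most 15.6 normalized counts) while Ngfr and Pmp22 were well above it (lowest values 875.6 and 1130.5); the fibroblast marker Col1a1 was between 90209.6 and 280123.2.

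Vegfa fell, and the control and YAP siRNA libraries did not overlap. Vegfa had 8100.1, 7875 and 8168 normalized counts in control replicates 1, 2 and 3, and 4523.5, 3484 and 3028 in YAP siRNA replicates 1, 2 and 3. The 3 control values lay close together, and every YAP siRNA value was below all of them. From 8048 ± 153 (SD, n = 3) the mean went to 3678 ± 767, or 45.7%. The log2 fold change, on the log2(value + 1) scale used throughout, was −1.15 (SE 0.117, 95% interval −1.42 to −0.88, adjusted p from limma 0.00156 blocked and 0.130 unblocked). By exact permutation (two-sided) p was 0.1, the lowest value possible with 3 libraries against 3. In bulk RNA, fewer cells of a type and less RNA per cell cannot be told apart, and gene-level values do not separate the VEGF-A isoforms. The difference was −0.84, −1.18 and −1.43 in the pairs numbered 1, 2 and 3. It stayed past the threshold in limma with the block without replicate 1, 2 or 3 of both groups, at −1.30, −1.14 and −1.01, but not with the block and no mean-variance trend (adjusted p = 0.0788).

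**Figure D1:**
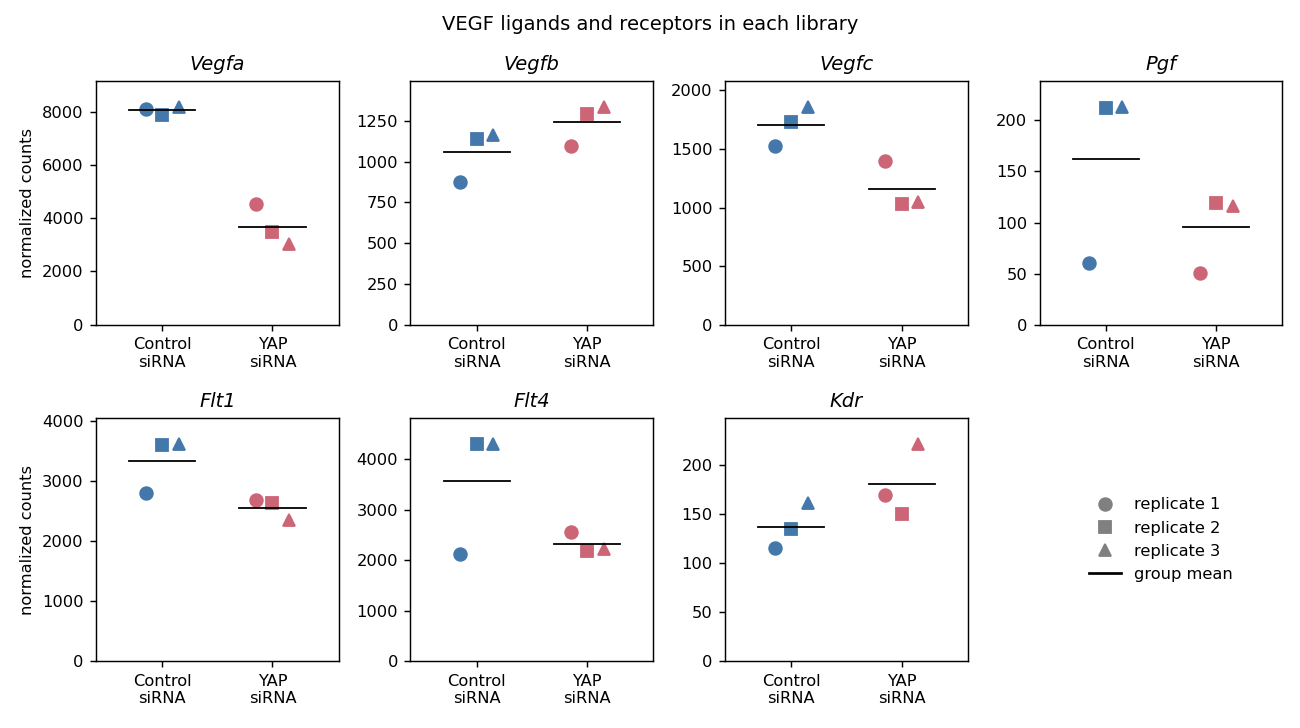
Normalized counts (y axis, from 0, a separate scale for each gene) of the 7 VEGF genes in each control siRNA (blue) and YAP siRNA (red) library; symbols give the replicate number and bars the group mean. Vegfa lies between 7875 and 8168 in the controls and between 3028 and 4523.5 after YAP siRNA, while for Flt4 and Pgf control replicate 1 lies far below control replicates 2 and 3.

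Vegfc, the ligand of the lymphatic receptor, also fell, by less. Its values were 1529.6, 1731 and 1858 in the controls and 1400.5, 1027 and 1046 after YAP siRNA. The groups did not overlap, but the libraries numbered 1 differed little. The mean was 67.9% of the control mean and the log2 fold change −0.57 (SE 0.146, adjusted p from limma 0.0324 blocked and 0.282 unblocked). Its difference was −0.13 in the pair numbered 1 and −0.75 and −0.83 in the pairs numbered 2 and 3. With the block it did not pass without replicate 2 (−0.48, limma adjusted p = 0.242) or replicate 3 of both groups (−0.44, limma adjusted p = 0.104), nor with no mean-variance trend (adjusted p = 0.155).

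Vegfb, a ligand of VEGFR1 alone among the 3 receptors, was not called in either direction. It had 874, 1138 and 1166 normalized counts in the controls and 1096, 1290 and 1334 after YAP siRNA. YAP siRNA was higher within each numbered pair, but the groups overlapped. The log2 change was 0.23 (95% interval −0.0089 to 0.48, unadjusted), and limma gave an adjusted p of 0.159 blocked and 0.672 unblocked.

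Pgf, which encodes placental growth factor, was scarce, with 40 to 462 recovered reads per library. It had 60.7, 212 and 213 normalized counts in the controls and 50.5, 119 and 116 after YAP siRNA. Libraries numbered 1 were lowest in both groups, and the groups overlapped through control replicate 1. The log2 change was −0.65 (95% interval −1.19 to −0.12, unadjusted), and limma gave an adjusted p of 0.0896 blocked and 0.758 unblocked. Without replicate 1 of both groups it was −0.85 (limma adjusted p = 0.0121 without the block). Leaving out control replicate 1 alone gave −1.25, and leaving out YAP siRNA replicate 1 alone −0.25 (limma adjusted p = 0.151 and 0.892 without the block). Without control replicate 2 or 3 it was −0.36 and −0.35.

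The receptor genes were Flt1 and Flt4, expressed at similar normalized counts, and Kdr, which was scarce. Flt1 had 2802.7, 3598 and 3625 normalized counts in the controls and 2690.3, 2639 and 2348 after YAP siRNA. The groups did not overlap, and in the libraries numbered 1 the values were close. The log2 fold change was −0.38 (SE 0.119, adjusted p from limma 0.0619 blocked and 0.394 unblocked). With the block, DESeq2 gave an adjusted p of 0.0369, edgeR 0.0527 and limma with no mean-variance trend 0.198. It was −0.54 without replicate 1 of both groups (limma adjusted p = 0.00284 without the block). With the block it was −0.34 and −0.25 without replicate 2 and 3 of both groups (limma adjusted p = 0.344 and 0.325). Flt1 also gives rise to a soluble decoy receptor, which gene-level values do not separate from the full-length one.

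Of the 7 genes, Flt4 had the widest spread of differences between numbered pairs. It had 2118, 4301 and 4300.4 normalized counts in the controls and 2563, 2179 and 2219.8 after YAP siRNA. Control replicates 2 and 3 stood above the other 4 libraries, and control replicate 1 was the lowest of all 6. The difference was thus 0.28 in the pair numbered 1 and −0.98 and −0.95 in the pairs numbered 2 and 3. Over all libraries the log2 fold change was −0.55 (SE 0.219, adjusted p from limma 0.114 blocked and 0.525 unblocked). It was −0.97 without replicate 1 of both groups (limma adjusted p = 7.2e-05 without the block) and −0.89 without control replicate 1 alone (limma adjusted p = 0.0339 without the block). With the block it was −0.34 and −0.35 without replicate 2 and 3 of both groups (limma adjusted p = 0.515 and 0.25).

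Kdr, the main signalling receptor for VEGF-A, had 115, 135 and 161 normalized counts in the controls and 169.5, 150.4 and 221.5 after YAP siRNA, from 76 to 349 recovered reads. YAP siRNA was higher in each numbered pair and the groups overlapped. The log2 change was 0.39 (95% interval −0.067 to 0.84, unadjusted), and limma gave an adjusted p of 0.207 blocked and 0.623 unblocked.

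**Figure D2:**
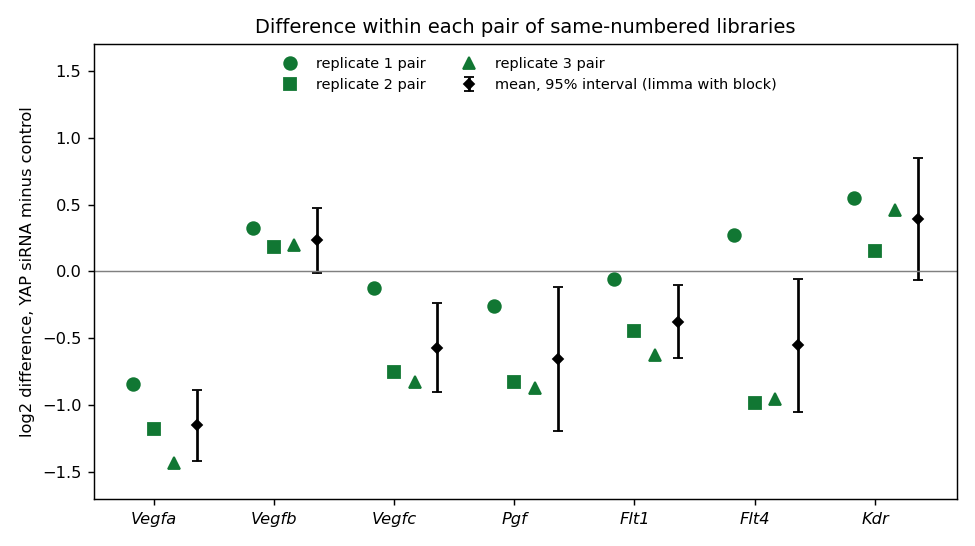
Log2 difference between YAP siRNA and control (y axis) for each of the 7 VEGF genes within the pairs of libraries numbered 1, 2 and 3 (green), with the mean and 95% interval of the blocked limma fit (black). Vegfa is below 0 in each pair, at −0.84 to −1.43, and Flt4 is at 0.28 in the pair numbered 1 and near −0.97 in the others.

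Over the 7 genes, the blocked fit called 0 higher and 2 lower, where 8.32% and 8.96% of all genes tested were called higher and lower. Their median log2 fold change was −0.55, against 0.0094 over all genes tested. In 3 of the 7 (Vegfa, Vegfc and Flt1) every YAP siRNA library was below every control, which held for 9.49% of all genes tested; 0 of the 7 lay wholly above the controls, as 9.47% of all genes did. Within all 3 numbered pairs 4 of the 7 (Vegfa, Vegfc, Pgf and Flt1) were lower and 2 (Vegfb and Kdr) higher, against 27.1% and 27.4% of all genes tested. Blocked edgeR called 2 of the 7 and 19.3% of all genes, and blocked DESeq2 3 of the 7 and 19.4%. Without replicate 1 of both groups and without the block, 5 of the 7 were called lower (Vegfa, Vegfc, Pgf, Flt1 and Flt4) and 0 higher, where 16.7% of all genes tested were called lower and 15.3% higher. Blocked fits called 43.8%, 2.56% and 8.52% of all genes without replicate 1, 2 and 3 of both groups.

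**Figure D3:**
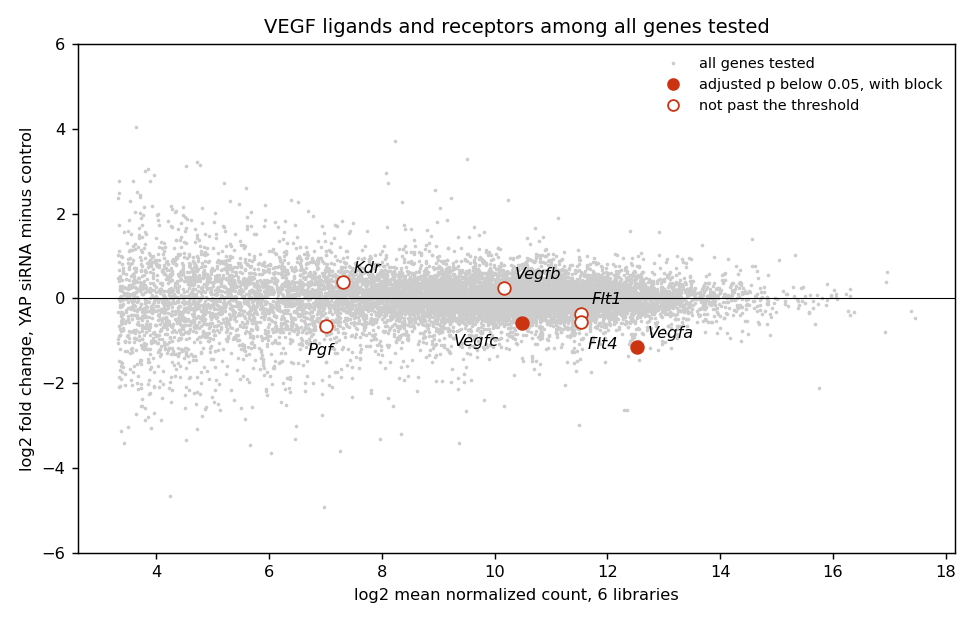
Log2 fold change with the block (y axis) against log2 mean normalized count (x axis) for all 12820 genes tested (grey) and the 7 VEGF genes (red circles, filled where past the threshold). Vegfa at −1.15 and Vegfc at −0.57 are filled, and Vegfb and Kdr lie above 0.

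Ratios within a library hardly depend on how libraries are scaled, and they show whether Vegfa and the other genes changed unequally. The log2 ratio of Vegfa to Vegfb was 3.21, 2.79 and 2.81 in the controls and 2.04, 1.43 and 1.18 after YAP siRNA, a difference of −1.38. The ratio to Kdr differed by −1.54, to Flt1 by −0.77, to Flt4 by −0.60 and to Vegfc by −0.58. Without control replicate 1 the difference to Flt4 was −0.25. For each of these 5 the groups did not overlap, and the exact permutation p (two-sided) was 0.1, the lowest possible, and 0.12 after Benjamini-Hochberg adjustment over the 6 ratios. For Pgf the difference was −0.50 (exact permutation p = 0.5) and turned to 0.10 without control replicate 1.

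Levels of different genes were compared per kb of annotated exons (GENCODE M21). In the controls Vegfa was highest, at 1878.1 ± 35.7 normalized counts per kb (SD, n = 3), which placed it at the percentile 95.6 of the genes tested that had a length. Vegfc (697 ± 67.6) and Vegfb (660 ± 100) followed, with overlapping libraries, and their order turned when the longest coding transcript was used as length. Flt4 (434 ± 153) and Flt1 (247 ± 34.6) also overlapped. Pgf was at 55.8 ± 30.2 and Kdr was lowest with 15.2 ± 2.53. After YAP siRNA the Vegfa libraries, at 1055.7, 813 and 707 per kb, overlapped those of Vegfb at 683, 804 and 831, and Vegfc (473 ± 85.9) lay below both without overlap. Pgf (32.8 ± 13.3) and Kdr (20.0 ± 4.08) then overlapped too.

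**Figure D4:**
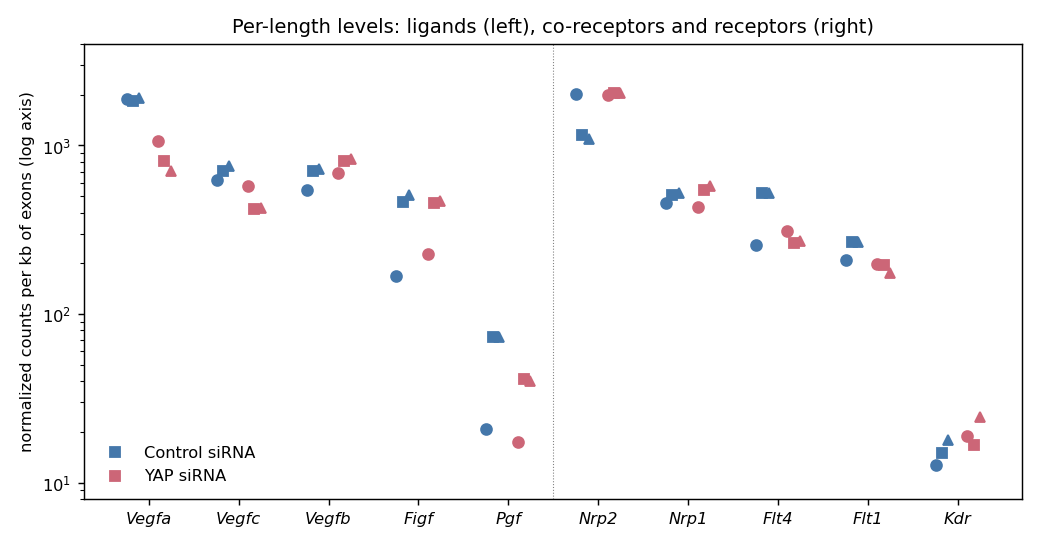
Normalized counts per kb of exons (y axis, log scale) in each library for 5 VEGF ligand genes (left) and for co-receptor and receptor genes (right), control siRNA in blue and YAP siRNA in red; symbols give replicates 1 (circle), 2 (square) and 3 (triangle). Vegfa falls from 1878.1 to 858 on average and comes to overlap Vegfb, and Kdr has the lowest mean in both groups, although Pgf (17.4) is below Kdr (18.8) in YAP siRNA replicate 1.

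Endothelial cells carry these receptors, so their markers were checked. Of 12 endothelial markers, 6 had a mean below 10 normalized counts, and Emcn and Cldn5 were at 0 in every library. Of all 23366 genes listed, 10546 had a mean below 10 and 5857 were at 0 in every library. The summed level of the 12 endothelial markers was 185, 469 and 474 in the controls and 150.3, 294 and 395 after YAP siRNA. The blocked fit called 0 of the 6 tested. Here and for the markers below, called counts stand against 8.32% higher and 8.96% lower over all genes tested. Pecam1 was between 17.2 and 64.0 and Erg between 34.9 and 183 normalized counts, below Flt1 and Flt4 in every library. Against the scarcer Kdr, Erg was higher in control replicates 2 and 3 (183 and 175 against 135 and 161) and lower in each other library. The same held for Egfl7 (166.8 and 161.7 in control replicates 2 and 3). These counts are not scaled to gene length. Of 3 lymphatic markers, Prox1 and Lyve1 had a mean below 10, and Pdpn was between 40.55 and 91.05 normalized counts. Of 9 macrophage markers listed, Cd14 and Tyrobp were at 0 in every library. Cd68 was between 100.9 and 163.9 and Csf1r between 62.57 and 196.3 normalized counts. Of 5 tested, 0 were higher and 1 lower (Csf1r), with a median log2 fold change of 0.21. Lyz2 had 1.5, 11.7 and 4.6 normalized counts in the controls and 6.0, 21.2 and 52.8 after YAP siRNA. Its log2 change was 1.85 and that of Ptprc, also scarce, 1.03 (blocked limma, adjusted p = 0.0873 and 0.343). Csf1r did not pass without replicate 2 or 3 of both groups (limma adjusted p = 0.224 and 0.0942 with the block). The summed level of macrophage markers was 285 to 355 in the controls and 221 to 315 after YAP siRNA. Of 6 fibroblast markers tested, 0 rose and 3 fell (Col1a1 by 0.46, Col3a1 by 0.31 and Dcn by 0.99 on the log2 scale). None of these 3 passed without replicate 2 of both groups (limma adjusted p = 0.181, 0.298 and 0.239 with the block) or replicate 3 (0.211, 0.239 and 0.116). Of 7 Schwann cell markers tested, Pmp22 rose by 1.00 and Ngfr fell by 0.80 on the log2 scale. Erbb3 also rose, with 92.6, 71.7 and 49.3 normalized counts in the controls and 137, 160.5 and 155.2 after YAP siRNA. Erbb3 did not pass without replicate 2 or 3 of both groups (limma adjusted p = 0.168 and 0.132 with the block). Ngfr did not pass without replicate 2 (limma adjusted p = 0.0666 with the block). The part of these cells and markers in the VEGF values was not tested.

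The counts of called genes in the lists that follow stand against 8.32% higher and 8.96% lower over all genes tested. Among related ligands and co-receptors, the fifth ligand gene and Nrp1 differed little in mean between groups and others moved both ways. The VEGF-D gene, listed as Figf, had 404, 1115.5 and 1219.7 normalized counts in the controls and 545, 1097 and 1121 after YAP siRNA, a log2 change of 0.095 (limma with the block, 95% interval −0.22 to 0.41). Its libraries numbered 1 were again the lowest. The co-receptor gene Nrp1 had a log2 change of 0.052 (limma with the block, 95% interval −0.15 to 0.25). Nrp2, which encodes the co-receptor for VEGF-C, rose by 0.58 (limma adjusted p = 0.0443 with the block). It had 23802.6, 13638 and 12888 normalized counts in the controls and 23582, 24245 and 24218 after YAP siRNA, so that the libraries numbered 1 did not differ. It did not pass without replicate 2 or 3 of both groups (limma adjusted p = 0.274 and 0.0958 with the block).

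Within the same list, Gpc1 and Ptprb passed in each blocked fit with a pair left out. Neither passed with the block and no mean-variance trend (limma adjusted p = 0.079 and 0.0841). Gpc1, which encodes a heparan sulphate proteoglycan of the cell surface that can bind VEGF-A, fell by 1.01 on the log2 scale. Ptprb, the gene for a receptor tyrosine phosphatase known in endothelium as VE-PTP, rose from 684, 941 and 926 to 1427, 4498 and 4843.5 normalized counts, a log2 fold change of 1.90. Of 7 tested in this list, 2 rose and 1 fell, with a median log2 fold change of 0.066.

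Genes for processing and release of the ligands that passed were all lower. Plau, which encodes the protease urokinase, fell by 1.41 and Mmp3, a metalloproteinase gene, by 2.66 on the log2 scale. Both passed with each pair left out, but not with the block and no mean-variance trend (limma adjusted p = 0.065 and 0.0921). The Plau groups overlapped through control replicate 1 (778.4 normalized counts). Mmp9 fell by 0.55 and the cathepsin gene Ctsd by 0.36; neither passed without replicate 2 of both groups (limma adjusted p = 0.209 and 0.255 with the block) or replicate 3 (0.136 and 0.157). Ccbe1, required for activation of VEGF-C, had a log2 change of −0.26 (blocked limma, adjusted p = 0.128), and its protease partner Adamts3 had a mean below 10. Of 8 tested in this list, 0 rose and 4 fell (background 8.32% and 8.96%), with a median log2 fold change of −0.36. Plau and Mmp3 were known to be lower in these data when the list was drawn up.

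Signalling genes downstream of the receptors went both ways. Pxn, which encodes the adhesion protein paxillin, fell by 0.51, while the adaptor gene Shc1 rose by 0.63 on the log2 scale. Prkcb, a protein kinase C gene, fell by 1.86, from 28.8, 40.5 and 57.1 to 12.02, 9.083 and 10.55 normalized counts. Without replicate 2 of both groups Pxn, Shc1 and Prkcb did not pass (limma adjusted p = 0.0948, 0.165 and 0.196 with the block), nor did Prkcb without replicate 3 (0.127). Over the list 3 were higher and 5 lower of 25 tested, with a median log2 fold change of −0.031. Hspb1 was listed at 0 in every library.

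Hypoxia-inducible factors are the best known inducers of Vegfa. The genes of these factors and of their regulators went both ways, and their part in the Vegfa result was not tested. Hif1a had a log2 change of 0.044 (limma with the block, 95% interval −0.15 to 0.24). Epas1, which encodes HIF-2α, fell by 0.93, from 376, 3491 and 3791 to 335, 1443 and 1498 normalized counts. Its libraries numbered 1 were lowest in both groups, and it did not pass without replicate 2 (limma adjusted p = 0.154 with the block). Arnt2, a partner subunit gene, rose by 1.03, with every YAP siRNA library above every control, and the prolyl hydroxylase gene Egln1 by 0.37. Egln1 did not pass without replicate 2 or 3 (limma adjusted p = 0.206 and 0.262 with the block). Of 9 genes tested in this list of factors and regulators, 2 rose and 1 fell, with a median log2 fold change of 0.044. Of other genes induced by these factors, 0 were higher and 1 lower of 7 tested, with a median of −0.084: P4ha1, a collagen prolyl hydroxylase gene, fell by 0.51 and did not pass without replicate 2 (limma adjusted p = 0.151 with the block).

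Genes whose products bind AU-rich elements, which the Vegfa message contains, or otherwise regulate its messenger RNA did not pass in either direction. Hnrnpl, at the highest level among the 6 tested, had a log2 change of −0.051 (blocked limma, adjusted p = 0.754), and the median was 0.12. Among other angiogenesis regulators 2 were higher and 3 lower of 12 tested, with a median log2 fold change of 0.20. Apln, which encodes the peptide apelin, fell by 1.61 and Angpt2, the gene for the TIE2 ligand angiopoietin-2, by 1.24 on the log2 scale. The chemokine gene Cxcl12 rose by 1.24 and Thbs2, which encodes an inhibitor of angiogenesis, by 0.57. Angpt2 did not pass without replicate 2 of both groups (limma adjusted p = 0.0659 with the block).

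**Figure D5:**
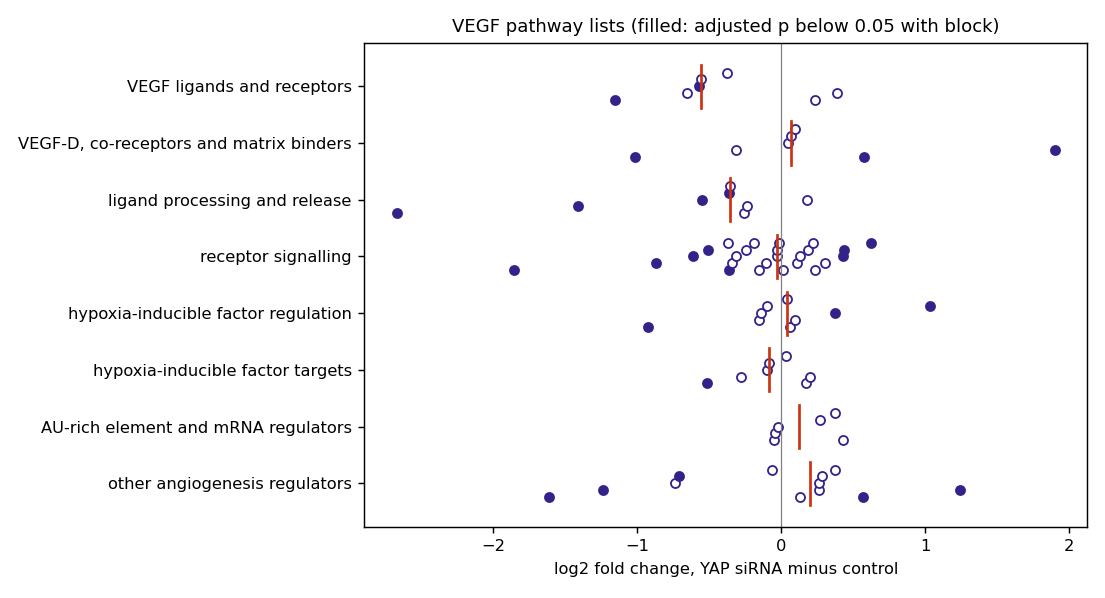
Log2 fold change with the block (x axis) of each tested gene in the VEGF family and in 7 lists of related genes (rows); filled circles passed the threshold, and red bars mark each list's median. The median of the VEGF ligands and receptors is −0.55, and those of the other lists lie between −0.36 and 0.20.

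The Vegfa message carries in its 3′ untranslated region a 7-mer that earlier work on these data picked out because its carriers were lower. The 7-mer, CTACATA, occurs once in the annotated Vegfa region of 1868 bases, starting at base 1629, and in none of the regions of the other 6 VEGF genes. It is shown with its flanks, in capitals, because Vegfa is the only one of the 7 that carries it.
Vegfa site (GENCODE M21): aatagagaattCTACATActaaatctctct
Of 12145 tested genes with an annotated region of at least 50 bases, 10.0% carried it. Since the values themselves chose the 7-mer, nothing is read from the direction of its carriers, and its part in the Vegfa result was not tested.

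The exons of the 7 genes overlapped those of no other annotated gene, and at most 0.803% of their 31-mers (Flt4) were shared with transcripts of other genes. The genes whose log2 values followed each VEGF gene most closely over the 6 libraries are a description, with Pearson's r and no test. Closest to Vegfa were Slc20a2, Kcnn4 and Adrbk1 (r = 0.9996, 0.997 and 0.997), and to Vegfc Epha2, Ereg and Solh (r from 0.994 to 0.997). Closest to Flt4 were Susd4, Abcb4 and Steap1 (r from 0.991 to 0.999), and to Flt1 Itpk1, Rassf1 and Tyro3 (r from 0.988 to 0.993). Those of Vegfb were Mustn1, Cxcl10 and Cdh11, those of Pgf Tenm3, Usp22 and Cgnl1, and those of Kdr Dgkz, Aldh1a7 and Fbxw9, each with r of at least 0.985. With 6 libraries high values can be common, and their number differed between VEGF genes. With Pgf 698 of 10757 genes reached r of at least 0.95, with Vegfa 161, with Flt4 95 and with Kdr 6. Between VEGF genes, Vegfa had r = 0.943 with Vegfc, 0.836 with Flt1 and 0.257 with Pgf.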

How the data were processed

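Values were made with TopHat2 2.0.9, HTSeq 0.6.1 and DESeq 1.14.0 on mouse build mm9, as the submitters' processing notes list; annotation and strand setting were not among the sources used. The authors deposited a signal, normalized counts in which a library's gene counts share 1 divisor. In each library 100% of values above 0 came out as whole reads to within 0.01 reads, and these reads were recovered. Here, log2(value + 1) was tested with limma 3.58.1 in R 4.3.3 (mean-variance trend, two-sided, Benjamini-Hochberg adjustment across the 12820 genes averaging 10 or more), and recovered reads with edgeR 4.0.16 and DESeq2 1.42.0. Same-numbered libraries correlated in their deviations at 0.788, 0.705 and 0.532, each over 0.1, so the numbers were taken to pair them; no label names a shared day. Control replicate 2 with YAP siRNA replicate 3 (0.552) and control replicate 3 with YAP siRNA replicate 2 (0.516) were over 0.1 too. With replicate 1 apart in both groups, the check thus does not settle which of replicates 2 and 3 belong together. Chi-square per degree of freedom between libraries of a group was 8.04 to 267, so none was a duplicate. On simulated counts for this comparison (12683 genes tested), blocked limma recovered 52.2%, 83.6% and 95.5% of genes changed 1.5-, 2- and 4-fold; 6.67% of its calls were false. Unblocked limma recovered 0%, 0% and 37.9%; the simulation built in the pairing. Exon lengths, 3′ regions and promoters came from GENCODE M21 and RefSeq, on another build than the files; 23005 of 23366 genes matched a length, 1273 of them by an older symbol. Members and lists were chosen with earlier results of these data known. Named were the 7 members, Yap1, Nrp1, Nrp2, Hif1a and Figf, in each pathway list at most 4 passing genes with the smallest p (or the highest gene where none passed), and the 3 genes most correlated with each member; Ccbe1, Adamts3, Hspb1, the marker genes and those in the closing observations were picked with their values in view. Some genes that the rule names are not reported here.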

Additional observations from a re-analysis of the deposited data

How the results depend on the processing

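Without the block, the other pseudocounts, filters, scalings, the fit without a trend and edgeR also called 0 genes and 0 of the 7 VEGF genes; DESeq2 called 722 and 1 (Vegfa, log2 fold change −1.13). With the replicate block, 2216 genes and 2 VEGF genes passed, with Vegfa at −1.15. The blocked counts of genes were 2190 with pseudocount 0.5, 2235 with pseudocount 10, 2137 with no filter, 2152 with a mean of at least 50, 2253 with one total and 2349 with quantiles, each with 2 VEGF genes and Vegfa between −1.15 and −1.12. Blocked edgeR called 2479 and 2, blocked DESeq2 2490 and 3, with Vegfa at −1.15 in both, and blocked limma without a trend 30 and 0. Leaving out a library or a numbered pair gave from 0 to 5631 genes, from 0 to 5 VEGF genes and Vegfa from −1.31 to −1.01. With the block, 5631, 328 and 1086 genes passed without replicate 1, 2 and 3 of both groups, and Vegfa was −1.30, −1.14 and −1.01. Without the block 4117 passed without replicate 1 of both groups (Vegfa −1.30), a fit chosen after seeing the data, and 496 without control replicate 1. Vegfa was −1.02 without YAP siRNA replicate 3. With a pair left out, blocked p-values rest largely on variance borrowed from other genes. Of 217 alternative values for single VEGF genes, 183 kept their direction and side of the threshold, 34 passed where the unblocked fit did not, and 0 reversed. Among the ratios, that of Vegfa to Pgf reversed, to 0.105, without control replicate 1 (−1.06 without YAP siRNA replicate 1); paired by replicate number, the Vegfa to Vegfb ratio stayed at −1.38 (exact permutation p = 0.25, the smallest that 3 pairs allow). The causes were not tested. Depth limits mainly Pgf and Kdr, with as few as 40 and 76 reads.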

Other observations

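Several genes of the vessel-related lists differed more between replicate 1 and the other replicates than between siRNAs. Hspg2, which encodes the basement membrane proteoglycan perlecan, had 6264, 49088 and 58879 normalized counts in control replicates 1, 2 and 3 and 6694.5, 36822 and 38576 after YAP siRNA. Serpinf1, which encodes the angiogenesis inhibitor PEDF, had 129, 995 and 804 in the controls and 174, 1146 and 1121 after YAP siRNA. Vash1, the gene for the angiogenesis inhibitor vasohibin-1, was below the filter, with 1, 0 and 0 recovered reads in the controls and 8, 12 and 6 after YAP siRNA, and was not tested across genes.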
